A study of Mus musculus with 75 samples.

Results

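The regions described here are stretches of open chromatin in sorted mouse hypothalamic nuclei that carried no overlapping H3K27ac region. They were the regions of the deposited ATAC-seq table that lie on chromosomes 1 to 19, share not even 1 bp with any region of the deposited H3K27ac ChIP-seq table, and have a mean normalized signal above 5 over the 16 ATAC libraries. The set holds 4691 regions, 10.7% of the 43645 autosomal ATAC regions above that mean. The other 38954 overlap H3K27ac and serve as the reference set below. The whole ATAC table lists 48634 regions, and the H3K27ac table lists 126368.

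ATAC-seq marks DNA that a transposase can reach, which is mostly DNA free of nucleosomes. H3K27ac is a histone mark that lies on the nucleosomes beside active promoters and enhancers, and it is often used to tell active regulatory elements from other open sites. Open sites without it are known to include sites bound by the insulator protein CTCF and enhancers that are accessible but not active in most of the cells. Which of these kinds any region here belongs to was not tested.

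All mice were LepRcre/+; SUN1-sfGFP/+, so that a Cre recombinase under the leptin receptor gene switched on a green fluorescent tag of the nuclear membrane. Cre recombination is permanent, so the tag also marks cells that used the driver only earlier in life. Nuclei came from pooled hypothalami and were sorted into GFP-positive and GFP-negative fractions; the GFP-negative fraction holds the other cells of the tissue. Fed mice ate freely. Fast mice were fasted for 36 h with saline injections at 12, 24 and 34 h. Lep24 mice were fasted likewise and received leptin, the satiety hormone made by fat, at 5 mg/kg at the same 3 times. Lep2 mice were fasted and received the same dose once, at 34 h. The treatment text gives no other injection for Lep2 and none for Fed mice, but the sample titles carry a 3-letter code (SSS for Fed and Fast, SSL for Lep2, LLL for Lep24) that the labels do not explain. Each of the 8 combinations of treatment and sort has 2 libraries. The labels do not say whether these came from separate pools of mice, so the p-values measure only the spread between libraries, which may be technical. No gene names come with the regions, so the sorted cells were not checked against marker genes and regions are given by position in mm9 only.

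The regions were short and weak, and most of them lay far from any H3K27ac. Their median length was 462 bp (middle 50%, 358 to 624 bp), against 862 bp (553 to 1360 bp) where H3K27ac overlapped. Of the 4691 regions, 58.3% were under 500 bp and 10.3% reached 1000 bp, against 19.6% and 41.6% of the reference set. The median of the mean normalized signal was 8.03 (middle 50%, 6.57 to 10.2) against 16 (10.1 to 32.5), and only 2.24% exceeded a mean of 20, against 40.5%. Divided by length, the gap was small, with a median of 18.1 signal units per kb against 19.9. The plot of lengths and signals shows both shifts.

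**Figure D1:**
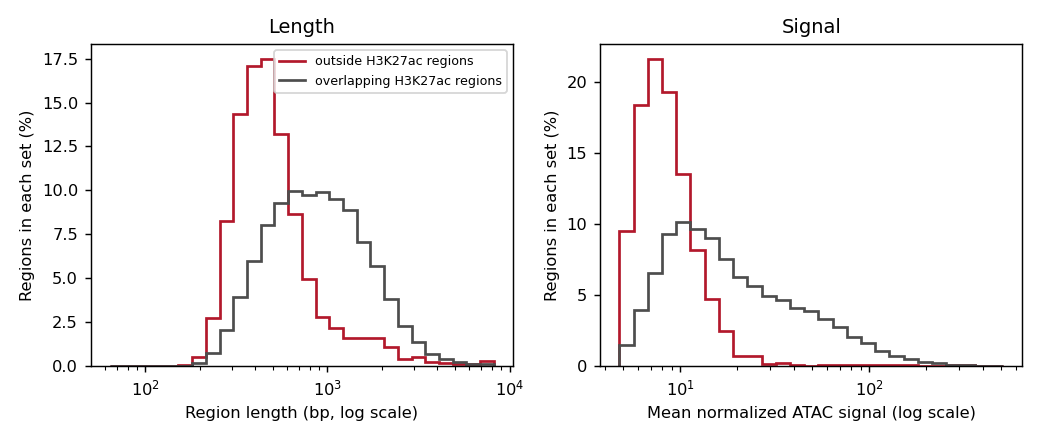
Distribution of region length (left, bp, log scale) and of mean normalized ATAC signal over 16 libraries (right, log scale) for the 4691 regions outside H3K27ac (red) and the 38954 that overlap it (grey), each as a percent of its own set; values beyond the axis are collected in the end bins. The red curves sit to the left, with medians of 462 against 862 bp and of 8.03 against 16.

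The nearest H3K27ac region lay at a median distance of 11600 bp (middle 50%, 4090 to 34700 bp), measured from edge to edge. It was within 1 kb for 6.95% of the regions, over 10 kb away for 53.6% and over 100 kb away for 9.59%. The regions were also isolated from other open chromatin: the next ATAC region was a median of 21900 bp away, against 7850 bp for the reference set. The most remote, chr5:60387981-60388282, lay 1158748 bp from H3K27ac and had a mean signal of 5.47. Chromosomes differed in how much of their open chromatin fell in the set. The share was 15.4% on chromosome 3, 13.5% on chromosome 18 and 13.4% on chromosome 1, and it was lowest on chromosomes 19 (7.21%) and 11 (6.98%).

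Both limits of the rule cut through a continuous range. The mean of 5 left out 3144 of 7835 autosomal regions without H3K27ac overlap (40.1%), but only 1.99% of those with overlap. The regions nearest to that limit had means of 5.0027 (chr7:68468711-68470838) and 5.0050 (chr18:76879307-76879573) just inside it. Just outside it were chr19:54608315-54608620 at 4.9981 and chr10:8012797-8013451 at 4.995. At the other limit, chr9:121417275-121417801 was in the set although it directly adjoined an H3K27ac region. By contrast, chr8:106103952-106104581 was out of it for 2 shared bp.

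The libraries differed in ways that touch every result below. The share of autosomal ATAC signal that fell in the set was 3.8% ± 0.0913 in the 8 GFP-positive libraries (SD, range 3.62 to 3.93%). It was 4.04% ± 0.102 in the 8 GFP-negative ones (SD, range 3.85 to 4.16%), and the ranges overlapped slightly. Regions of the set listed at 0 made up 0.576 to 11.1% (median 1.42%) of it in GFP-positive libraries and 0.0426 to 1.26% (median 0.406%) in GFP-negative libraries. Fast GFP-positive replicate 2 stood highest with 521 regions at 0 (11.1%), followed by Lep2 GFP-positive replicate 2 with 268 (5.71%). The number of reads behind a value is unknown. As a guide, the median region of the set had 3 to 10 distinct non-zero values at or below its own in GFP-positive libraries and 6 to 16 in GFP-negative ones. Low values were therefore coarser in GFP-positive libraries than in GFP-negative ones of the same treatment and number. Replicate numbers differed too, with 6 to 10 such values in GFP-positive replicate 1 libraries and 6 to 8 in GFP-negative replicate 2 libraries. Between the replicates of a group, the correlation of log2(signal + 1) across the 4691 regions was 0.375 (Fast GFP-positive) to 0.611 (Lep24 GFP-negative), against 0.81 to 0.916 across the reference set; regions are not independent replicates.

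**Figure D2:**
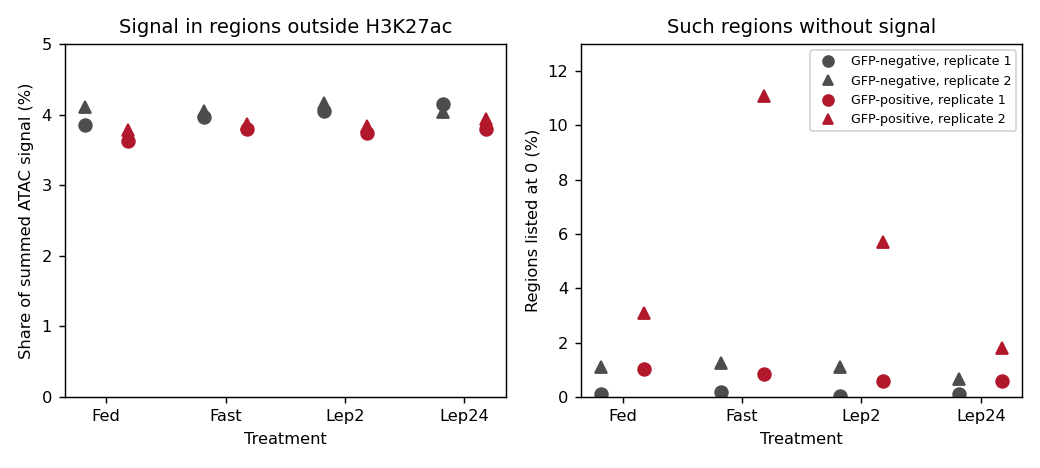
Share of summed autosomal ATAC signal that falls in the 4691 regions (left, percent) and share of these regions listed at 0 (right, percent), by treatment; each point is 1 of 16 libraries, grey GFP-negative and red GFP-positive, circles replicate 1 and triangles replicate 2. GFP-positive libraries lie at 3.62 to 3.93% on the left, and Fast GFP-positive replicate 2 reaches 11.1% on the right.

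The first comparison asks whether open chromatin of LepR-lineage nuclei differs from that of the remaining hypothalamus. In the set, 811 regions differed between the sorts, and most of these were less open in GFP-positive nuclei. The background for this comparison was 9.82% of all 44425 ATAC regions tested, and 17.3% of the set was called. Lower signal in GFP-positive nuclei was called in 585 regions (12.5% of the set; background 5.18%). Higher signal was called in 226 regions (4.82%; background 4.65%). Lower calls made up 72.1% of the called regions of the set, against 48.1% of the 3494 called in the reference set. In a sorted fraction, fewer nuclei with an open region and a less open region in each nucleus cannot be told apart. Calls are limma's moderated test on log2(signal + 1), averaged over the 4 treatments, with Benjamini-Hochberg adjusted p under 0.05 over all regions tested.

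Quantile normalization moved this split. With it, 385 regions were called higher and 556 lower (20.1% of the set, over a background of 11.5%). Lower calls were then 59.1% of the set's calls, against 46.9% of the calls in the reference set. How much of the difference rests on the more frequent zeros of GFP-positive libraries was not tested as such. Without the 2 libraries with most zeros, 247 regions were called higher and 565 lower (17.3% of the set, over a background of 9.55%). The 8 replicate 1 libraries had fewer regions at 0 than replicate 2 in each group. With them alone, 293 were called higher and 579 lower (18.6% of the set, over a background of 11%). Lower calls were then 66.4% of the set's calls and 46% of those in the reference set. Replicate 2 alone called 53 higher and 109 lower, 3.45% of the set over a background of 2.65%. There lower calls were 67.3% of the set's calls and 58.5% of those in the reference set.

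The changes were large for single regions and small for the set as a whole. The median change over the 4691 regions was -0.16 (log2), beside -0.011 over all regions tested. It was -0.082 with quantile normalization, -0.035 for the regions with a mean above 10, and -0.041 on the authors' variance-stabilized scale. The median also varied with signal, in the reference set too. At a mean of 5 to 7.5 it was -0.296 in the set and -0.159 in the reference set, and at 7.5 to 10 -0.144 and -0.036. At 10 to 15 it was -0.054 and 0.033, and above 15 it was 0.03 and 0.006. On the main scale the median over the whole set was negative in each of the 8 pairs of libraries matched on treatment and number. It ran from -0.07 in Lep24 replicate 2 to -0.196 in Lep2 replicate 2. Among the 585 lower regions the median change was -1.13, and 389 of them (66.5%) changed at least 2-fold, against 34.5% of the lower calls in the reference set. Among the 226 higher regions the median was 0.99, and 111 (49.1%) changed at least 2-fold, against 16.8% in the reference set. A region with a wider confidence interval needs a larger change to be called. The median 95% interval reached 0.549 to either side in the set and 0.393 in the reference set. The 2-fold shares among called regions therefore cannot compare the size of changes between the sets. All 8 pairs pointed the same way for 362 lower regions (7.72% of the set; background 3.17%) and 127 higher regions (2.71%; background 2.61%). The 8 GFP-positive and 8 GFP-negative libraries did not overlap at all for 112 lower regions (2.39%; background 0.903%) and 39 higher regions (0.831%; background 0.646%). Lower calls outnumbered higher ones on each of the 19 chromosomes, where they were 58 to 93.8% of the calls. The highest share, on chromosome 19, came from 15 lower calls and 1 higher call. All chromosomes come from the same libraries, so they are not independent repeats, and the reference set was not split in this way.

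**Figure D3:**
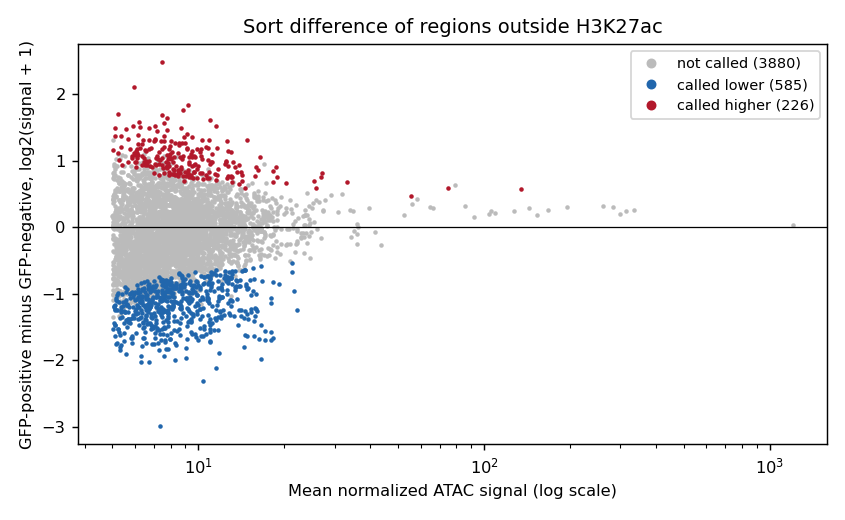
Difference between GFP-positive and GFP-negative libraries on the log2(signal + 1) scale (vertical axis) against mean normalized signal (horizontal axis, log scale) for the 4691 regions; 585 were called lower (blue), 226 higher (red) and 3880 not called (grey). Blue points outnumber red ones at low signal, and none of the 6 regions of highest signal is coloured.

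The lower region with the smallest p was chr3:150339760-150340307, 548 bp long and 65632 bp from H3K27ac. Its signal in GFP-negative libraries was 10.8 at the lowest, 17.2 at the median and 24.6 at the highest, and in GFP-positive libraries 0, 4.1 and 6.5. The sorts did not overlap, and both Fast GFP-positive libraries were listed at 0. The change was -2.31 ± 0.25 (log2, SE; limma adjusted p = 1.47e-05). The region chr16:55019243-55019884 (642 bp) ran from 20.2 to 31.2 in GFP-negative libraries with a median of 26.1. In GFP-positive libraries it ran from 0 to 14.5 with a median of 6.7. It changed by -1.98 ± 0.27 (SE; limma adjusted p = 0.000127). It also had the smallest false discovery rate of the set in the authors' deposited table, at 0.000662.

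At chr14:114334257-114334861 the GFP-negative libraries held 19.4 to 38.3 (median 28.8) and the GFP-positive ones 4.6 to 18.4 (median 7.35), a change of -1.67 ± 0.19 (SE; limma adjusted p = 1.85e-05). At chr2:53290512-53291335, the longest of the lower regions named here at 824 bp, the values were 14.7 to 36.1 (median 29) against 4.9 to 12.1 (median 7.95). That change was -1.57 ± 0.2 (SE; limma adjusted p = 5.97e-05). The libraries of the sorts did not overlap in either region.

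The other 6 of the 10 lower regions with the smallest p were chr2:108769618-108770219, chr1:90428194-90428762, chr9:116387603-116388357, chr12:38482701-38483196, chr10:65805637-65806205 and chr13:84588657-84589387. Their means in GFP-negative libraries were 15.8 to 24.8 and in GFP-positive libraries 5.22 to 8.82, with changes from -1.33 to -1.68 (log2). A region outside the 10, chosen after its values were seen, had the largest fall. This region, chr3:76731240-76731628, was listed at 0 in 6 of 8 GFP-positive libraries and at 5.8 and 9.1 in Fed replicate 1 and Lep24 replicate 2. Its GFP-negative libraries held 9.5 to 17.7 (median 12.4).

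Among the regions more open in GFP-positive nuclei, chr6:30918838-30919346 (509 bp, 8143 bp from H3K27ac) had the smallest p. Its signal was 3.8 at the lowest, 13 at the median and 20.9 at the highest in GFP-positive libraries. In GFP-negative libraries it was 0, 1.95 and 2.5, so that it was close to silent there and the sorts did not overlap. The change was 2.48 ± 0.36 (log2, SE; limma adjusted p = 0.000195). At chr16:49249746-49250585 (840 bp) the GFP-positive libraries held 11.6 to 26.4 (median 15.2) and the GFP-negative ones 2.5 to 8.5 (median 4.25), a change of 1.61 ± 0.25 (SE; limma adjusted p = 0.000293). At chr13:93677818-93678407 (590 bp) they held 8.3 to 18.7 (median 14.6) and 0 to 6.1 (median 4.25), a change of 1.76 ± 0.27 (SE; limma adjusted p = 0.000293).

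The other 7 of the 10 higher regions with the smallest p were chr1:186988329-186989063, chr2:53703621-53704259, chr1:67921855-67922621, chr12:3941913-3942681, chr11:20180980-20181767, chr3:33308995-33309482 and chr16:93247090-93247438. Their GFP-positive means were 13.3 to 22.4 and their GFP-negative means 3.8 to 10.3, with changes from 1.06 to 1.83 (log2). Of these 7, only chr2:53703621-53704259 had a GFP-negative library listed at 0, Lep2 replicate 2.

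Called regions of the set were spread along the chromosomes, with a median gap of 1690 kb between consecutive ones. Of the 57 consecutive pairs up to 100 kb apart, 47 (82.5%) changed in the same direction, 45 of them both lower and 2 both higher. Between 100 kb and 1 Mb the share was 62.1% of 211 pairs, and over 1 Mb it was 61.6% of 524 pairs. With 72.1% of the calls lower, pairs often share a direction at any gap. These pairs were counted after the values were seen, and no such count was made for the reference set. Neighbours could also differ: the lower region chr2:53290512-53291335 and the higher region chr2:53703621-53704259 have the lower region chr2:53588238-53588709 between them.

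The share of lower calls rose with distance from H3K27ac. Up to 1 kb away, 3.99% of 326 regions were called lower and 4.29% higher. From 1 to 10 kb it was 10.2% lower and 5.29% higher of 1851 regions. From 10 to 100 kb it was 14.2% and 4.41% of 2064 regions, and beyond 100 kb it was 20% and 5.11% of 450 regions. The median length fell along the same bins, from 564 to 432 bp. With replicate 1 alone the lower shares were 3.99, 10, 13.9 and 20.7% in the same order, and the higher shares also climbed, from 3.68 to 5.35, 7.12 and 7.78%. With quantile normalization the lower shares were 4.6, 9.56, 13.6 and 18.4% and the higher shares 7.36, 7.94, 8.19 and 10%. The distance bins were not split by signal, so what part signal has in this pattern was not tested. Binned by signal alone, the lower share was 11.7% at a mean of 5 to 7.5, 12.2% at 7.5 to 10, 14.9% at 10 to 15 and 11% above 15. In the reference set it was 5.72, 5.16, 5.21 and 3.44% in the same bins.

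Length divided the set more sharply. Of the 4211 regions up to 1000 bp, 583 were called lower (13.8%; background 5.18%) and 201 higher (4.77%; background 4.65%), and their median change was -0.223. Of the 480 regions over 1000 bp, 2 were called lower (0.417%) and 25 higher (5.21%), and their median change was 0.271. Their higher share was thus close to the background, and their lower share was far below it. In the reference set, regions over 1000 bp had a median change of 0.005, with 483 lower (2.98%) and 651 higher (4.02%) calls among 16197. The long regions of the set were broad and faint, with a median of 5.18 signal units per kb, against 18.7 for the shorter ones and 22.2 for long regions overlapping H3K27ac.

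Among the long regions, the excess of higher over lower calls rested on replicate 2. Their median signal was 10.5 to 13 in the 4 GFP-positive replicate 2 libraries and 7.3 to 9.8 in the 4 GFP-positive replicate 1 libraries. In the GFP-negative libraries it was 6.5 to 9.5 in replicate 1 and 6.9 to 8.6 in replicate 2. Replicate 1 alone gave 7 higher (1.46%) and 8 lower (1.67%) calls among the 480, against 3.57 and 3.71% of long reference regions. Replicate 2 alone gave 31 higher (6.46%) and 1 lower (0.208%), against 1.64 and 1.73%. The median change of the long regions was positive in both, at 0.099 with replicate 1 and 0.453 with replicate 2. In the shorter regions it was -0.169 and -0.257. The longest region, chr7:66775925-66857869 with 81945 bp, had a GFP-positive range of 43.9 to 77.4 (median 63.2) and a GFP-negative range of 35.4 to 82.4 (median 41.6). Its sorts overlapped, since Fed GFP-negative replicate 1 was its highest library, and its change was 0.47 ± 0.13 (SE; limma adjusted p = 0.0189).

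**Figure D4:**
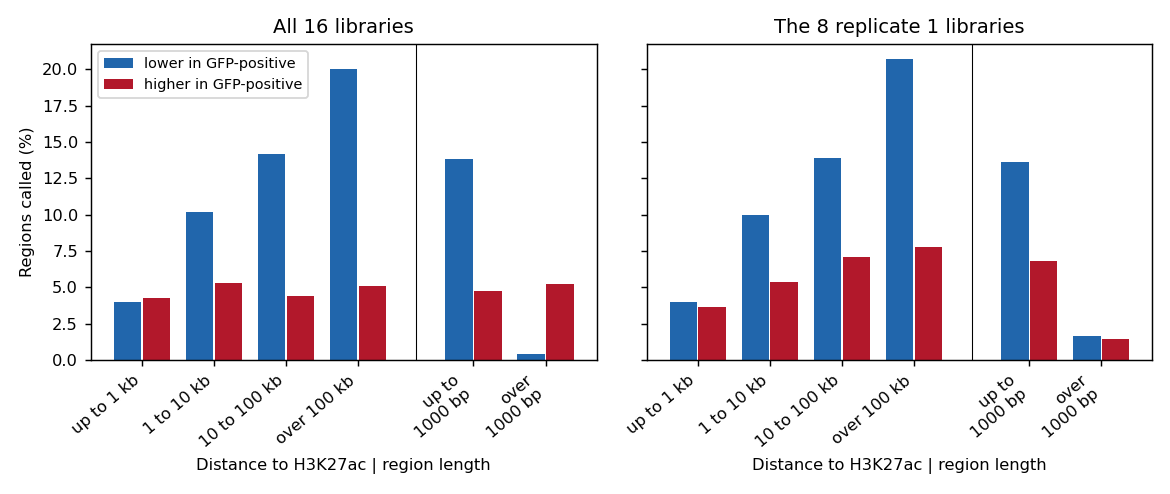
Percent of regions called lower (blue) and higher (red) in GFP-positive libraries, by distance to the nearest H3K27ac region and by region length, with all 16 libraries (left) and with the 8 replicate 1 libraries alone (right). The lower share climbs from 3.99 to 20% with distance on the left and from 3.99 to 20.7% on the right, where the higher share climbs too, from 3.68 to 7.78%. The excess of higher over lower calls in regions over 1000 bp appears on the left only.

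The 6 regions of highest signal had no called difference between the sorts. They were chr1:24618383-24622998 with a mean of 1205.6, then chr17:71313005-71313233, chr13:44964941-44965390, chr12:79451872-79452155, chr18:85867318-85867677 and chr16:17222307-17222608. Their changes between the sorts were all positive, at 0.03 to 0.32 (log2) with SE of 0.19 to 0.37. A sort difference of that size could therefore not be told from none. Input libraries were not analysed, so whether this strong signal reflects open chromatin was not tested. In all 6, replicate 2 exceeded replicate 1 in each of the 8 groups. The region on chromosome 17 ran from 123.4 to 210 in replicate 1 libraries (median 184) and from 371.3 to 630.4 in replicate 2 libraries (median 506). The region on chromosome 1 ran from 689.4 to 1335 (median 868) and from 973.3 to 1939.9 (median 1560).

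This split by replicate number was frequent among the strong regions of the set. Replicate 2 exceeded replicate 1 in all 8 groups in 26 of 105 regions with a mean above 20 (24.8%), and the reverse held in 2. Over the whole set the counts were 73 (1.56%) and 61 (1.3%), and among reference regions with a mean above 20 they were 734 (4.65%) and 493 (3.12%). It included chr1:104524669-104524925, which lay 999425 bp from H3K27ac and held 23.2 to 48.6 in replicate 1 libraries and 80.2 to 116.5 in replicate 2 libraries.

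**Figure D5:**
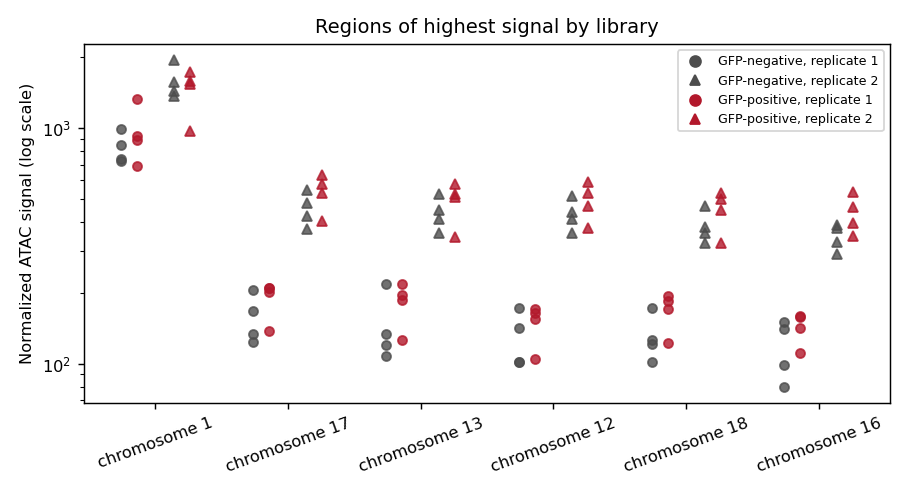
Normalized ATAC signal (log scale) of the 6 regions of highest signal in the set, named by chromosome, in each of 16 libraries; circles are replicate 1 and triangles replicate 2, grey GFP-negative and red GFP-positive. In the regions other than that of chromosome 1, all triangles lie above all circles, for example 371.3 to 630.4 against 123.4 to 210 on chromosome 17, whereas the colours mix.

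H3K27ac beside the called regions was set next to them as a description, since none of them overlaps it. A tested H3K27ac region lay within 10 kb of 2162 regions of the set. Beside the 112 higher regions with such a neighbour, 3 of the nearest H3K27ac regions were called higher (2.68%; background 3.05%) and 4 lower (3.57%; background 5.67%). Beside the 196 lower regions, 4 were called higher (2.04%) and 17 lower (8.67%). Beside the 1854 regions not called, 44 were higher (2.37%) and 93 lower (5.02%). The median H3K27ac change was 0.143 beside higher and -0.041 beside lower regions. Spearman's rho between the ATAC and H3K27ac changes was 0.0786 across the 2162 regions and 0.167 across the 308 called ones. Both assays used the same sorts, and regions are not independent. In the H3K27ac data, 6 libraries had a larger share of signal on the mitochondrial chromosome (0.075 to 0.238%, against 0.0102 to 0.0384% in the other 10). With a term for these 6, the counts beside higher regions became 16 higher and 11 lower, and beside lower regions 18 higher and 35 lower, over a background of 12.5% and 12.8%.

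The second question is whether fasting or leptin changed these regions. With limma, no region of the set passed an adjusted p of 0.05 in any of the 6 treatment comparisons, nor in the 3 tests of a difference between sorts, over a background of 0% in each. With no adjustment, 391 regions in GFP-positive nuclei had a p under 0.05 for Fast against Fed (8.34%; background 6.63%), and 118 did in GFP-negative nuclei (2.52%; background 1.99%). Lep2 against Fast gave 495 (10.6%; background 7.88%) and 77 (1.64%; background 1.5%). Lep24 against Fast gave 424 (9.04%; background 6.72%) and 77 (1.64%; background 1.49%). The tests of a difference between sorts gave 245, 245 and 169 regions in the same order, over backgrounds of 3.95, 4.02 and 2.98%. The median changes of the set lay between 0.007 and 0.062 (log2) in the 6 comparisons, which share their Fast libraries. The larger unadjusted counts of the GFP-positive sort depended on the fit. With only the groups compared in the fit, Fast against Fed gave 129 GFP-positive against 194 GFP-negative regions. Lep2 against Fast then gave 147 against 161, and Lep24 against Fast 125 against 180. With quantile normalization the counts were 193 against 204, 211 against 150 and 231 against 153, in that order of comparisons.

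These data would miss moderate treatment effects. The median 95% confidence interval of a region of the set reached 1.1 (log2) to either side within a sort and 1.55 for a difference between sorts, against 0.549 for the sort comparison. In the reference set the interval within a sort reached 0.786. All 16 libraries shared a common estimate of the spread, so the width is the same in both sorts by construction. Replicates correlated at 0.375 to 0.521 across the set in GFP-positive groups and at 0.547 to 0.611 in GFP-negative groups. The interval may therefore be too narrow for GFP-positive and too wide for GFP-negative nuclei. A treatment change below 2-fold was therefore within the interval of the median region.

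Among the regions with the smallest treatment p in GFP-positive nuclei, 3 were listed at 0 in both libraries of a group. At chr8:5008118-5008524 the GFP-positive libraries held 3.9 and 10.5 in Lep24, 4.4 and 4.6 in Lep2, 0 and 0 in Fast and 3.9 and 5.4 in Fed. The GFP-negative libraries of that region ran from 7.8 to 17. It had the smallest adjusted p of the set in Lep24 against Fast (limma, 0.132) and had 0.33 in Fast against Fed. At chr16:60367732-60368036 the GFP-positive libraries were listed at 0 in both Fed libraries and held 8.7 and 3.7 in Fast, 4.6 and 9.1 in Lep24 and 6.1 and 8.1 in Lep2 (limma adjusted p = 0.327 for Fast against Fed). The region chr3:150339760-150340307, described above for its sort difference, was at 0 and 0 in Fast, 3.6 and 4.6 in Lep2 and 5.8 and 2.6 in Fed (limma adjusted p = 0.283 for Lep2 against Fast).

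Replicates were uneven in others. At chr6:5655110-5656077 the GFP-positive libraries held 6.7 and 6.9 in Fed, 0 and 2.4 in Lep24, 9.5 and 25.7 in Lep2 and 6.5 and 28.5 in Fast, so that replicate 2 was high in Fast and Lep2 (limma adjusted p = 0.343 for Lep24 against Fast). In GFP-negative nuclei all regions of the set had an adjusted p that rounds to 1. The GFP-negative region with the smallest p in Lep2 against Fast, chr16:57901148-57901421, held 4 and 0 in Fast and 6.5 and 13.2 in Lep2.

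The count of 0 in GFP-positive nuclei depended on which libraries were in the fit. Without Fast GFP-positive replicate 1, which leaves Fast to replicate 2 with its 521 regions at 0, Fast against Fed gave 330 lower and 9 higher regions (7.23% of the set; background 3.23%). Lep2 against Fast then gave 341 higher and 18 lower (7.65%; background 3.51%), and Lep24 against Fast gave 396 higher and 11 lower (8.68%; background 3.63%). Without Fast GFP-positive replicate 2 each of these comparisons gave 1 region. Without Lep2 GFP-positive replicate 1, which leaves Lep2 to the library with 268 regions at 0, Lep2 against Fast gave 90 lower and 4 higher regions (2%; background 0.932%). Where 1 library stands for a group, it is assumed to vary like the others.

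The authors' deposited table gives its own tests. For GFP-positive against GFP-negative it lists a false discovery rate for 1747 regions of the set and none for 2944, all of the latter at a mean signal up to 8.96. By the authors' deposited table, 12 regions of the set were under 0.05, all lower in GFP-positive nuclei, out of 140 in the whole table, and all 12 were also called here. The authors' deposited table gives a median log2 change of -0.147 over the set, and its sign matched the one computed here in 86.6% of the regions. For the sorts within a treatment, the authors' deposited table has no region of the set under 0.05, with a smallest rate of 0.386 in Lep24, 0.0692 in Lep2 and 0.144 in Fast. In its comparisons of Lep2 or Lep24 with Fast, the authors' deposited table has 0 regions under 0.05, in the set and in the whole table.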

How the data were processed

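The labels' protocols describe nuclei sorted from pooled hypothalami; 16 ATAC libraries and, for overlap and neighbours, 16 H3K27ac libraries were used. The submitters' processing notes name the build mm9 and, with no role for each, the tools DESeq2 1.16.1, HTSeq 0.6.0, MACS2, Bowtie2 2.2.6, Bowtie 1.2, STAR 2.5.2b and CASAVA 1.8. The authors deposited a normalized signal per region and library, per the file headers; the normalization is not stated in the sources used here. The deposited tables also hold variance-stabilized values on a log2 scale, log2 fold changes and adjusted p-values (FDR) of the authors' comparisons, per the file headers. Mean signal is the deposited mean over 16 libraries.

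The members, bins and lists were chosen with earlier results of these data known. Overlap and distance were computed with GenomicRanges 1.54.1 in R 4.3.3. The test was limma 3.58.1 on log2(signal + 1) with 8 group means and an intensity-dependent prior, fitted over all 44425 ATAC regions with a mean above 5, with Benjamini-Hochberg adjustment. No count test was used, since read counts could not be recovered. The procedure was tested on simulated data. Regions named are the 10 with the smallest p in each direction among called regions with the same sign in all 8 library pairs. For treatments they are the region with the smallest p in each direction, of which some are described. The 6 of highest signal, the 4 longest and 4 farthest, and those nearest the limits were also listed. Alternatives are given in the closing section. RNA, input and other samples were not analysed here.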

Additional observations from a re-analysis of the deposited data

Results flagged for a closer look

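In 58 groups of 8 libraries of 1 sort (26 regions and 3 library measures in each sort), 7 had a library standing apart from the other 7 by Dixon's criterion; chance flags about 1 in 20 groups. In 4 of the lower regions that library was Lep24 GFP-positive replicate 2, which was the highest of the GFP-positive libraries. It held 18.4 at chr14:114334257-114334861, where the next held 9.3, and 19.8 at chr2:108769618-108770219, where the next held 8.6. It held 15.8 at chr1:90428194-90428762 (next 9.8) and 14.5 at chr9:116387603-116388357 (next 8.7). Over all 585 lower regions, the median change in the pair of libraries of Lep24 replicate 2 was -0.6 (log2), against -0.88 to -1.34 in the other 7 pairs. Over the 226 higher regions it was 0.84, and the other pairs had 0.84 to 1.19. Without that library, 522 regions were called lower and 200 higher (15.4% of the set, over a background of 8.78%).

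The other 3 were single cases. Lep2 GFP-positive replicate 1 held 30 at the higher region chr3:33308995-33309482, where the next held 18.7. Lep24 GFP-negative replicate 2 held 32.4 at the lower region chr13:84588657-84589387, where the next held 21.1. The median signal of the set was 8 in Fed GFP-negative replicate 1, below the next lowest GFP-negative library at 8.5.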

How the results depend on the processing

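The sort comparison called 811 regions of the set. It called 268 at an adjusted p of 0.01 (5.71% of the set, 3.08% of all regions tested) and 514 with no filter (11% and 6.33%). With a pseudocount of 0.1 it called 407 (8.68% and 6.52%). Of the 1257 members with a mean above 10 it called 244 (19.4%, beside 9.82% of all regions tested, at any mean above 5). With replicate 2 alone, where 8 libraries are left, it called 162 (3.45% and 2.65%). The cause of the other differences was not tested. Lower calls outnumbered higher ones in each of these. Leaving out 1 library gave 463 (9.87%, 5.59% of all) to 1091 calls (23.3%, 13.1% of all). The count fell by over 1.5 times without Fast (463), Fed (486) or Lep2 (496) GFP-negative replicate 2, without Lep2 (537) or Lep24 (489) GFP-negative replicate 1, and without Lep24 GFP-negative replicate 2 (511). In these runs 9.87 to 11.4% of the set and 5.59 to 6.77% of all regions tested were called.

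The median sort change of the set was -0.035 for a mean above 10, -0.202 and -0.096 with pseudocounts of 0.1 and 5, -0.082 with quantile normalization, and -0.117 without the 2 GFP-positive libraries with most zeros. It was -0.181 to -0.126 with 1 library left out. It stayed negative in each alternative run. Within 50 kb, 28 of 412 nearest H3K27ac regions beside lower regions were lower (6.8%; background 5.67%), with a median change of 0.027, and 6 of 184 beside higher regions were higher (3.26%; background 3.05%). With the 6-library term 35 of 196 (17.9%; background 12.8%) and 16 of 112 (14.3%; background 12.5%) were.

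In the treatment comparisons of GFP-positive nuclei, a pseudocount of 0.1 called 4 regions for Fast against Fed (0.0853% of the set, 0.0158% of all regions tested). It called 2 for Lep2 (0.0426% and 0.0113%) and 2 for Lep24 (0.0426% and 0.009%) against Fast. Leaving out the 2 libraries with most zeros leaves 1 library each in Fast and Lep2. Regions in and outside the set were then called for Fast against Fed and for Lep24 against Fast. Leaving out 1 library gave 0 to 339, 0 to 359 and 0 to 407 in GFP-positive nuclei; at the highest, 3.23, 3.51 and 3.63% of all regions were called. It gave 0 to 5, 0 to 3 and 0 to 2 in GFP-negative nuclei, the highest each without Fast GFP-negative replicate 1. For the differences between sorts it gave 0 to 120, 0 to 99 and 0 to 102, highest without Fast GFP-positive replicate 1; without Lep2 GFP-positive replicate 1 the Lep2 difference gave 8. Fast against Fed gave 1 without Fed GFP-positive replicate 1, and Lep24 against Fast gave 4 without Lep24 GFP-positive replicate 1.

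The replicate numbers were not taken to pair the samples: the replicate deviations of the sorts correlated at 0.0356 to 0.138 within treatments, not all over 0.1. Over all 28 pairs of groups they ran from 0.024 to 0.173, with 16 over 0.1. With a replicate block the sort comparison called 1011 regions (21.6% of the set, 14.2% of all regions tested). With a block per pair it called 1048 (22.3% and 14.8%). With the replicate block, Lep24 against Fast in GFP-positive nuclei called 3 (0.064% and 0.018%), and the other treatment counts stayed at 0.

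For the 20 named sort regions, 555 of 560 refits kept direction and call. The other 5, all with replicate 2 alone, kept direction only. These regions were picked from the same data for a small p and the same direction in every library pair. Refits could therefore hardly undo their calls, and this count says nothing about the other called regions. The count of the whole set ran from 463 to 1091 when a library was left out. The number of regions in the set was 1257 with a mean above 10, 4483 at 500 bp or more from H3K27ac, and 4991 when under 50% overlap was allowed. The alternatives by replicate number, zeros, stabilized values and the 6-library term, and those of the bins by distance and length, were chosen after seeing the data. Depth per region was unknown.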
